A study of Araneus ventricosus with 24 samples.

Results

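Pyriform spidroins are the proteins of the attachment disc, the adhesive patch by which a spider fixes its dragline to a surface. The clusters described here are all those whose deposited protein description contains the word pyriform, piriform or PySp, in any case. The rule found 8 of the 142219 assembled clusters. Of these, 5 were described as the pyriform spidroin of *Araneus ventricosus* and 3 matched only through a species name (pyriformis), so that 5 clusters carry the results and the other 3 are accounted for separately.

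RNA was taken from 2 tissues of the orb-weaving spider *Araneus ventricosus*, labelled ampullate gland and cerebral ganglia. The spiders were untreated or had 30 days of exposure to cadmium, to lead, or to cadmium plus lead. Doses, sex, age and the number of spiders behind a library are not given in the labels. Each group was labelled as a triplicate, but 4 columns held the counts of another column of their group in every cluster and were left out, which leaves 20 distinct libraries. For each tissue these were 3 untreated, 3 cadmium, 2 lead and 2 combined libraries. The labels do not tie replicates to separate animals. The p-values therefore describe only how these libraries vary, which may be technical.

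Orb weavers make several silks in separate abdominal glands. Pyriform glands supply short fibres embedded in a liquid cement that sets on contact with a surface. The neighbouring types are the ampullate glands (dragline and auxiliary threads), aciniform glands (prey wrapping), aggregate glands (the glue droplets of the web spiral) and the flagelliform gland (the spiral core). Spidroins are long repetitive proteins that are made in the gland epithelium through the secretory pathway, stored in the lumen as a dense solution and drawn into fibres in an acidified duct. Their transcripts are long and repetitive, which makes short-read assemblies break them into pieces.

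The 5 spidroin clusters shared 1 closest protein entry and may be pieces of a single gene. They summed to 4010 bases. The leading cluster (Cluster-16698.46903) is 1517 bases long, followed by Cluster-16698.54023 with 1398, Cluster-16698.54769 with 423, Cluster-16698.47177 with 348 and Cluster-16698.46944 with 324 bases. They are therefore not independent measurements of a condition. The counts of Cluster-16698.46944 were not whole numbers in any of the 18 libraries where it had counts, and those of the leading cluster in 18 of 20 (tolerance 0.005). Non-whole estimated counts show that reads were divided between clusters, so the split of reads among the pieces is uncertain. Cluster-16698.54023 held whole numbers in all 15 libraries where it was counted.

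Library totals ran from 14834065 to 20954478 estimated counts in the gland and from 16055611 to 19255512 in the ganglia. The clusters called pyriform took a larger part of counts than the major ampullate spidroins in untreated gland replicates 1 and 2 and in all 3 cadmium gland libraries. In the other gland libraries they took a smaller part. In the untreated gland, major ampullate clusters held between 0.0334% and 1.15% of counts, aciniform clusters between 3.73% and 15.5%, and pyriform clusters between 0.459% and 2.88%. The labelled gland thus carried the transcripts of several silk types, and the aciniform type led in the untreated libraries. It did not lead in the combined gland libraries, with 0.0662% and 0.354% against 2.33% and 2.16% for major ampullate clusters. The 112 clusters with nerve-marker descriptions summed to between 1110 and 1678 CPM (counts scaled to a common library size) in the gland and between 2333 and 10742 CPM in the ganglia. Clusters named synaptotagmin, synaptobrevin and elav overlapped between the tissues, and choline acetyltransferase was at most 2.65 CPM in any ganglia library. The 97 clusters with muscle-marker descriptions summed to between 25140 and 53173 CPM in the ganglia, above the nerve markers there. In the gland they summed to between 820 and 5801 CPM. The part of muscle in the differences between gland and ganglia was not tested.

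Pyriform spidroin RNA was abundant in the gland and scarce in the ganglia, and the lowest gland values of its leading cluster were those of the combined exposure. The leading cluster had 8595, 24891 and 4485 CPM in the 3 untreated gland libraries. With cadmium it had 8871, 14470 and 11714 CPM, and with lead 12541 and 6936 CPM. With cadmium plus lead it had 3703 and 340.8 CPM. The untreated, cadmium and lead libraries overlapped, and both combined libraries lay below every other gland library. Taken singly, combined below every cadmium library held for 22.7% of all clusters tested in the gland, and combined below every lead library for 11.5%. The share of all clusters with the combined libraries below every other gland library was not computed. In group means the order was untreated (12657 ± 10792 CPM, SD, n = 3), cadmium (11685 ± 2800, n = 3), lead (9739 ± 3963, n = 2) and combined (2022 ± 2378, n = 2), and the first 3 neighbours in that order did not differ beyond their spread.

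Cluster-16698.46944, the 324-base piece, had 2338, 2757 and 213 CPM in the untreated gland. It had 378, 883 and 916 CPM with cadmium, 245 and 164 CPM with lead, and 111 and 6.93 CPM with both metals. Both combined libraries lay below all others, and both lead libraries lay below the 3 cadmium libraries and below 2 of the 3 untreated libraries. The share of all clusters with such a joint order was not computed.

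Cluster-16698.54023, the 1398-base piece, followed another pattern across libraries. It had 40.7, 1476 and 25.6 CPM in the untreated gland and 59.2, 288 and 210 CPM with cadmium. It had 1145 and 346 CPM with lead and 280 and 29.5 CPM with both metals. Untreated replicate 2 was the highest gland library for all 3 of these clusters, and here it exceeded the other untreated libraries by far. The combined libraries overlapped the untreated ones, and both lead libraries lay above the 3 cadmium libraries. Lead libraries all below the cadmium ones were found for 24.6% of all clusters tested, and all above for 18.8%.

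**Figure D1:**
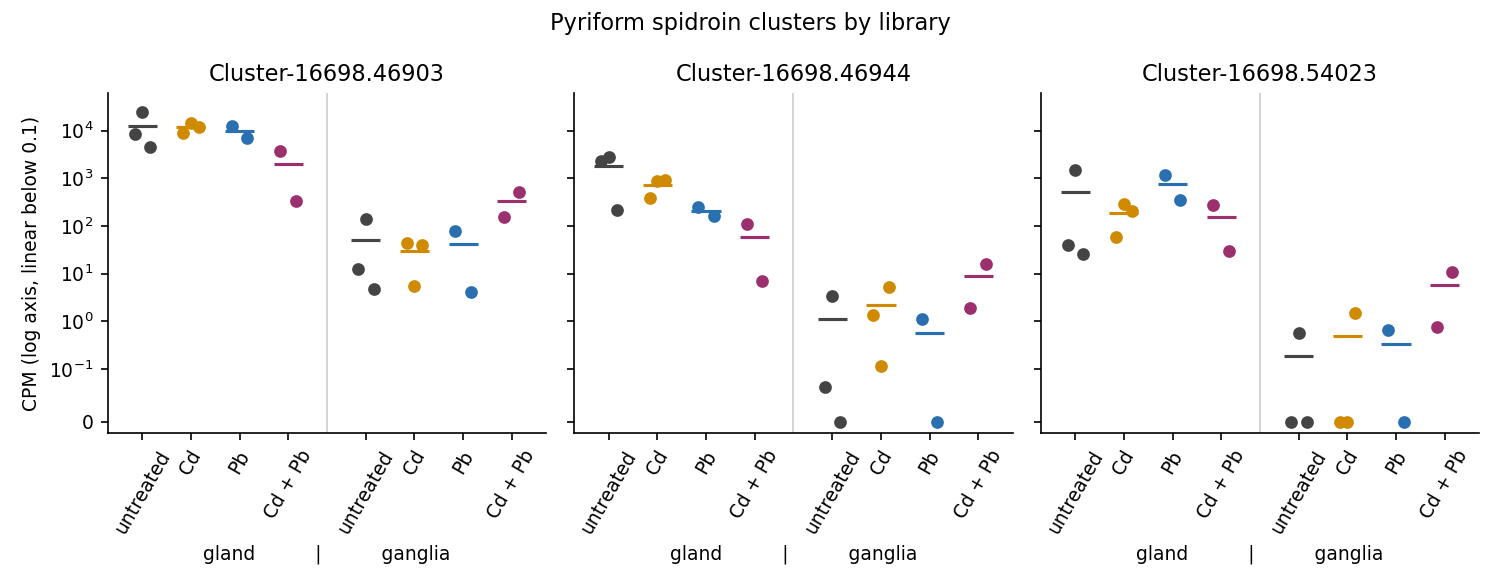
CPM of the 3 pyriform spidroin clusters that passed the filter on low counts, per library (points) with the group mean (line), on a log axis that is linear below 0.1. In the leading cluster the combined gland libraries (3703 and 340.8 CPM) lie below all other gland libraries, and the combined ganglia libraries (154 and 525 CPM) above all other ganglia libraries. The share of all clusters with such a separation was not computed.

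The remaining spidroin clusters were rare and did not pass the filter on low counts. Cluster-16698.54769 had between 0 and 8 estimated counts in 9 gland libraries and 215 in cadmium gland replicate 3. It had 0 counts in all 10 ganglia libraries, which allows at most 0.187 CPM in the ganglia library with the fewest counts (3 counts of its total, counting error only). Cluster-16698.47177 had at most 17.4 counts in any gland library and 2.77 in a single ganglia library. Thus 3 of 5 spidroin clusters passed the filter and were tested in each tissue.

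On the deposited FPKM scale, which corrects for length, the 324-base piece and the leading cluster were of the same order and the 1398-base piece was lower. The correction divides by an effective length, which is the cluster length less the fragment length. In the untreated gland this was only 76.7 to 79.7 bases for the 324-base piece, against 1266 to 1270 for the leading cluster. A small error in fragment length would thus change the FPKM of the 324-base piece strongly, and its level is uncertain. The leading cluster had 8123, 19432 and 3433 FPKM in the untreated gland, the 324-base piece 36019, 35536 and 2594 FPKM, and the 1398-base piece 42.4, 1271 and 21.6 FPKM. In untreated replicates 1 and 3 the 1398-base piece stood at 0.00522 and 0.0063 of the leading cluster's FPKM, against 0.0654 in replicate 2. Pieces with the same closest protein entry thus differed widely in level within a library.

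The ratios between the pieces also differed between libraries with and without lead. The FPKM of the 324-base piece over that of the leading cluster was 4.43, 1.83 and 0.756 in the untreated gland and 0.767, 1.30 and 1.28 with cadmium. It was 0.453 and 0.538 with lead and 0.647 and 0.433 with both metals. All 4 gland libraries with lead lay below all 6 without. In CPM, every library with lead lay below every library without for 4.17% of all clusters tested in the gland, and above for 7.51%. For the FPKM ratio this share was not computed. The same ratio for the 1398-base piece ran from 0.0552 to 0.101 with lead and from 0.00522 to 0.0654 without, and the groups overlapped through untreated replicate 2. A ratio within a library does not depend on how libraries are scaled against each other, and these ratios are given as a description, with no test.

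The fragment length that the deposited FPKM values imply moved with lead as well. It was between 277 and 278 bases in the gland libraries with lead and between 247 and 273 bases in those without. For a 324-base cluster this leaves an effective length of 53.5 to 57.4 bases with lead, where it could be measured in 3 of 4 libraries, and of 58.4 to 79.7 bases without. Lead and fragment length cannot be told apart in these ratios.

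**Figure D2:**
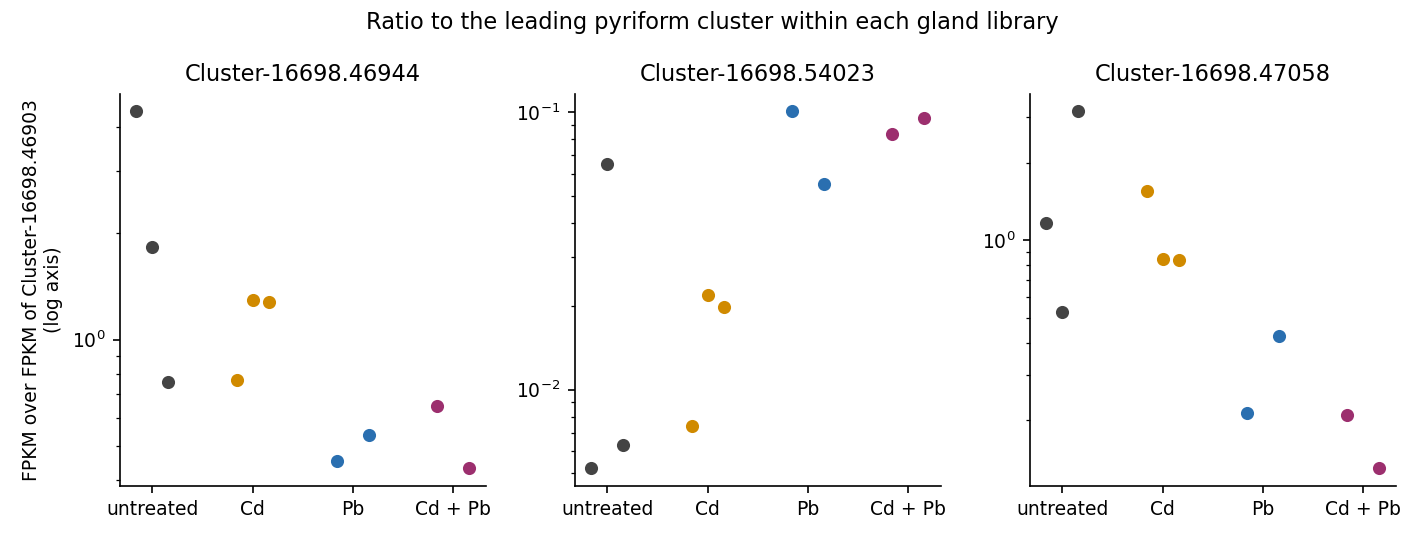
FPKM of 3 clusters divided by the FPKM of the leading cluster in each gland library (log axes, a different range in each panel), by treatment. For Cluster-16698.46944 (0.433 to 0.647 with lead, 0.756 to 4.43 without) and for Cluster-16698.47058, which matches the pyriform gene only by nucleotide (0.131 to 0.424 with lead, 0.528 to 3.16 without), libraries with and without lead do not overlap. The share of all clusters with such a separation was computed only in CPM (4.17% below, 7.51% above).

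Between tissues, all 3 tested spidroin clusters were higher in the gland than in the ganglia in untreated spiders and in cadmium-exposed spiders. The leading cluster had 12.7, 137 and 4.75 CPM in the untreated ganglia, and every gland library exceeded these values. Its gland-to-ganglia difference was 8.04 ± 1.72 on the log2 scale (SE; edgeR quasi-likelihood test, Benjamini-Hochberg adjusted p = 0.0092). The 1398-base piece differed by 11.46 ± 2.72 (edgeR adjusted p = 0.0163), from a ganglia group with counts in only 1 of 3 libraries, and the 324-base piece by 10.64 ± 2.36 (edgeR adjusted p = 0.0112). The call was thus 3 of 3 clusters higher, against 3.91% of the 51904 clusters tested that were called higher in the gland (10.3% in either direction). Without untreated ganglia replicate 1 or 3 the 1398-base piece lost its call (edgeR adjusted p = 0.0692 and 0.0633), and in a fit with only the untreated libraries 1 of 3 clusters was called.

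With cadmium, the ganglia had 43.1, 5.46 and 40.8 CPM of the leading cluster, and the difference was 8.58 on the log2 scale (edgeR adjusted p = 0.0063). Again 3 of 3 clusters were called higher in the gland, against 5.48% of all clusters tested. The calls of the shorter pieces did not hold when single libraries were left out. Both lost the call without cadmium ganglia replicate 1 or 2, without either lead gland library and without either combined ganglia library, and also with no filter on low counts (edgeR adjusted p = 0.101 and 0.0651). The 1398-base piece lost it as well without cadmium gland replicate 2 or 3, without either combined gland library and without either lead ganglia library (adjusted p up to 0.11 over the libraries left out), and with the replicate number as a block (0.062). The 324-base piece lost it as well without cadmium ganglia replicate 3 (adjusted p up to 0.0903 over the libraries left out). The leading cluster kept its call in all of these settings.

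With lead, the ganglia had 79.1 and 4.19 CPM of the leading cluster. The difference was 7.76 ± 2.08 on the log2 scale for the leading cluster (edgeR adjusted p = 0.0408), 11.03 ± 3.24 for the 1398-base piece (adjusted p = 0.059) and 8.40 ± 2.66 for the 324-base piece (adjusted p = 0.0798), so that 1 of 3 was called, against 2.57% of all clusters tested. This count ran from 0 to 2 when single libraries were left out. It fell to 0 without any 1 of the lead, combined or cadmium gland libraries, without any 1 of the lead or combined ganglia libraries and without cadmium ganglia replicate 1 or 3. It was 2 without any 1 of the untreated gland libraries, and stayed at 1 without any 1 of the untreated ganglia libraries or cadmium ganglia replicate 2.

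With cadmium plus lead, the tissues came closest. The leading cluster had 154 and 525 CPM in the ganglia beside 3703 and 340.8 CPM in the gland, so the groups overlapped. The difference was 2.48 ± 1.64 on the log2 scale (edgeR adjusted p = 0.424), and 0 of 3 clusters were called, against 1.95% of all clusters tested called higher in the gland. None of the 3 had an unadjusted p under 0.05, and DESeq2 called none of the 3. Without combined gland replicate 1 the sign turned for the leading cluster (-0.40) and for the 324-base piece (-0.80).

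Within the gland, no pyriform cluster passed the test in any comparison of treatments. For cadmium against untreated, the leading cluster differed by -0.12 ± 0.83 on the log2 scale (SE; edgeR adjusted p = 1), the 1398-base piece by -1.47 ± 1.52 and the 324-base piece by -1.29 ± 1.04. The whole comparison called 0% of 44505 clusters by edgeR, while 1273 had an unadjusted p under 0.05; by DESeq2 93 were higher and 4 lower. Without untreated replicate 2 the leading cluster stood at 0.83 and the 1398-base piece at 2.48, so the sign of the 1398-base piece rested on that library. The leading cluster's sign also turned without cadmium replicate 1 (0.045).

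For lead against untreated, the leading cluster differed by -0.38 ± 0.94 (edgeR adjusted p = 0.876) and the 1398-base piece by 0.54 ± 1.65 (adjusted p = 0.903). The 324-base piece differed by -3.11 ± 1.31 (unadjusted p = 0.0404, edgeR adjusted p = 0.41). Again 0% of clusters were called by edgeR, while 5283 had an unadjusted p under 0.05; by DESeq2 798 were higher and 999 lower, none of the 3 among them. The leading cluster turned to 0.57 without untreated replicate 2. The 1398-base piece stood at 4.49 without that library and was negative without untreated replicate 1 (-0.0064), untreated replicate 3 (-0.16) or lead replicate 1 (-0.58).

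For cadmium plus lead against untreated, the values of all 3 clusters were negative. The leading cluster differed by -2.65 ± 1.04 on the log2 scale (unadjusted p = 0.0285, edgeR adjusted p = 0.304), the 324-base piece by -4.91 ± 1.44 (unadjusted p = 0.0075, edgeR adjusted p = 0.197) and the 1398-base piece by -1.73 ± 1.77 (edgeR adjusted p = 0.656). None of 3 was called, against 0.225% of all clusters tested; 2 of 3 had an unadjusted p under 0.05, as did 14.9% of all clusters. The leading cluster and the 324-base piece had both combined libraries below every untreated library, which held for 11.9% of all clusters tested. DESeq2 called the 324-base piece (adjusted p = 0.0008), in a comparison where it called 1347 of all clusters higher and 1866 lower. The leading cluster's difference was -5.25 without combined replicate 1 and -1.70 without untreated replicate 2, while -1.73 remained without combined replicate 2. The 324-base piece stood at -8.01 without combined replicate 1. The 1398-base piece stood at 2.22 without untreated replicate 2 and -4.20 without combined replicate 1.

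For lead against cadmium, the leading cluster differed by -0.26, the 1398-base piece by 2.004 and the 324-base piece by -1.83 on the log2 scale, and none was called, as for 0% of all clusters by edgeR (4118 had an unadjusted p under 0.05, and DESeq2 gave 882 calls, none of the 3 among them). The first value was 0.023 at the highest when single libraries were left out.

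Cadmium plus lead was also set against each metal alone. Against lead the leading cluster differed by -2.27 ± 1.07, the 1398-base piece by -2.27 ± 1.91 and the 324-base piece by -1.80 ± 1.29 on the log2 scale (edgeR adjusted p = 1 for each). Against cadmium the differences were -2.53 ± 1.03 (adjusted p = 0.435), -0.26 ± 1.68 and -3.62 ± 1.34 (adjusted p = 0.42) in the same order, and the middle value was 0.60 at the highest when single libraries were left out. EdgeR called 0% of all clusters in both comparisons, while 902 and 5032 had an unadjusted p under 0.05; DESeq2 gave 156 and 1857 calls, of which the 324-base piece against cadmium (adjusted p = 0.038) was the pyriform cluster. The combined change less the changes of both single metals was -2.15 ± 1.33 for the leading cluster (edgeR adjusted p = 1), and 0% of clusters were called in it by edgeR (798 had an unadjusted p under 0.05) and 65 by DESeq2.

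Pooling the 4 gland libraries with lead against the 6 without, with cadmium balanced, gave -1.45 ± 0.69 for the leading cluster (unadjusted p = 0.0614, edgeR adjusted p = 0.22), 0.14 ± 1.17 for the 1398-base piece and -3.37 ± 0.94 for the 324-base piece (unadjusted p = 0.0056, edgeR adjusted p = 0.0946). None of 3 was called, against 1.68% of all clusters tested, with 1 of 3 at an unadjusted p under 0.05 against 25.1% of all clusters. The 324-base piece was called by DESeq2 (adjusted p = 0.00089), and by edgeR without untreated replicate 3 (adjusted p = 0.0348). DESeq2 called 2871 of all clusters higher and 4059 lower in this comparison. Without combined replicate 1 the leading cluster stood at -2.78, and without untreated replicate 2 the 1398-base piece stood at 2.11. Lead and the implied fragment length coincide in the gland and cannot be told apart in this comparison. In the ganglia they coincide as well, with 271 to 281 bases with lead and 248 to 262 bases without. The same limit holds for every comparison here of libraries with lead against libraries without, in either tissue and for every cluster. It also holds for the differences of such changes between the tissues.

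**Figure D3:**
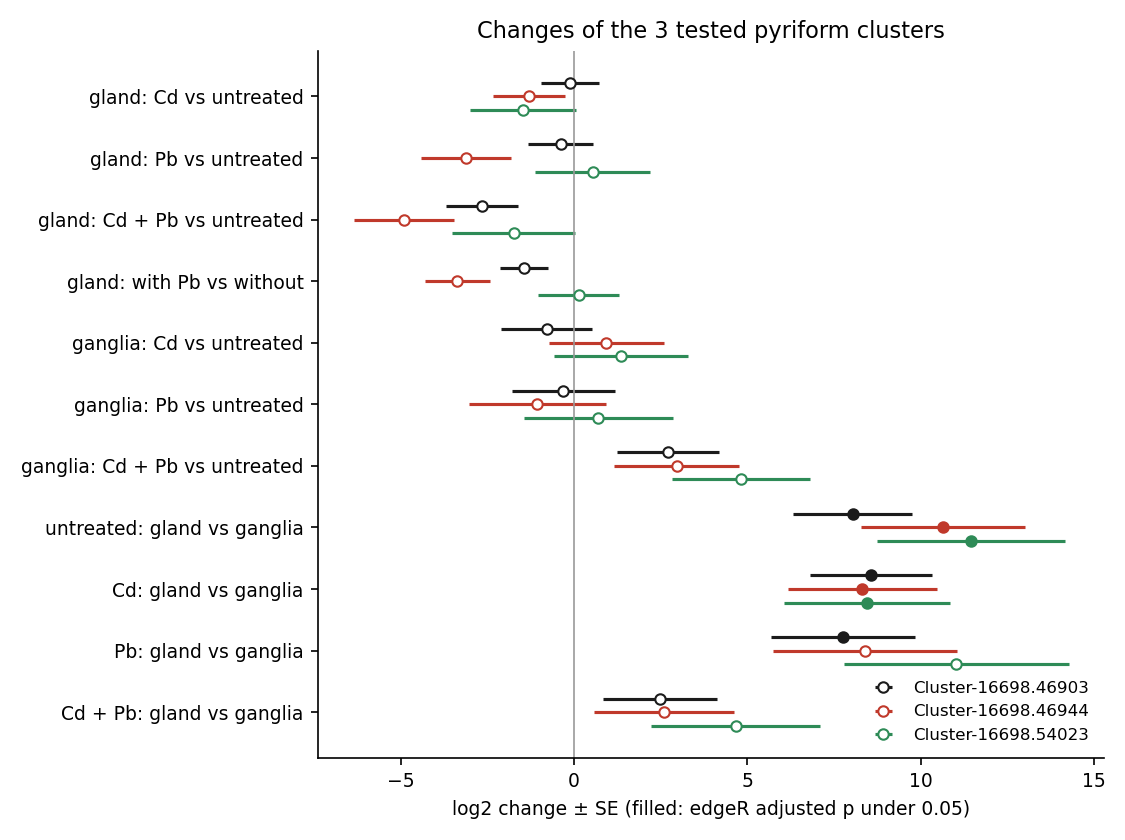
log2 changes with their SE (edgeR) for the 3 tested pyriform spidroin clusters in 11 comparisons; filled points have an adjusted p under 0.05. Filled points occur only in the comparisons of gland with ganglia, for 3 clusters in untreated spiders, 3 with cadmium and 1 with lead.

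In the ganglia the leading cluster was counted in all 10 libraries, at 4.19 to 137 CPM outside the combined group. The combined libraries had 154 and 525 CPM, above all other ganglia libraries. Taken singly, combined above every cadmium library held for 18.3% and combined above every lead library for 19.6% of all clusters tested in the ganglia. The share of all clusters with the combined libraries above every other ganglia library was not computed. The 324-base piece had 0 to 5.13 CPM outside the combined group and 1.91 and 16.3 CPM within it, and the 1398-base piece 0 to 1.46 CPM outside it and 0.741 and 10.6 CPM within it, so the groups overlapped for both. The difference from untreated for the leading cluster was 2.72 ± 1.48 on the log2 scale (edgeR adjusted p = 0.312), 4.82 ± 1.995 for the 1398-base piece (unadjusted p = 0.0378, adjusted p = 0.197) and 2.97 ± 1.81 for the 324-base piece (adjusted p = 0.366). None of 3 was called, against 1.06% of the 38659 clusters tested, and DESeq2 called none of 3. Both combined libraries above every untreated library, as seen in the leading cluster and the 1398-base piece, held for 20.5% of all clusters tested.

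Other silk types were counted in the same ganglia libraries. Aciniform clusters held 0.0329% and 0.0819% of counts in the combined ganglia, against 0.0032% to 0.0362% in the untreated ganglia, beside 0.0148% and 0.068% for pyriform clusters in the combined ganglia. Aggregate clusters held 0.0588% and 0.0789%, against 0.000872% to 0.0316% untreated. The remaining types overlapped the untreated ganglia, as the aciniform type did: major ampullate clusters held 0.158% and 0.0619% against 0.0703% to 0.487%, minor ampullate 0.0132% and 0.0135% against 0.0065% to 0.0177%, and flagelliform 0.0183% and 0.0186% against 0.0166% to 0.0653%. Whether silk gland RNA reached these libraries at dissection or preparation was not tested. For lead against untreated ganglia, 0 of 3 pyriform clusters were called by edgeR or by DESeq2, against 4.92% of all clusters called by edgeR, and none of the 3 had an unadjusted p under 0.05. For cadmium against untreated ganglia none was called either, as for 0% of all clusters by edgeR (2946 at an unadjusted p under 0.05, 125 called by DESeq2).

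For the leading cluster the combined exposure went with lower values in the gland and higher values in the ganglia. The 1398-base piece overlapped the untreated libraries in the gland, and the 324-base piece overlapped them in the ganglia. EdgeR called none of the 3 against untreated in either tissue. The difference between the changes in the 2 tissues was -5.56 ± 2.16 on the log2 scale for the leading cluster (unadjusted p = 0.0219, edgeR adjusted p = 0.536), -6.79 ± 3.13 for the 1398-base piece (adjusted p = 0.577) and -8.04 ± 2.86 for the 324-base piece (adjusted p = 0.511), and 0 of 3 passed the test, against 0.0212% of all clusters. This comparison was added after the values were seen. The lead effect in the gland minus that in the ganglia was -3.19 ± 1.45 for the leading cluster (unadjusted p = 0.0455, edgeR adjusted p = 0.412), again not called, against 0.0424% of all clusters.

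Summed over its 5 clusters, pyriform spidroin took 1.55 ± 1.23% of counts in the untreated gland (SD, n = 3), 1.29 ± 0.335% with cadmium (n = 3), 0.915 ± 0.343% with lead (n = 2) and 0.187 ± 0.199% with both metals (n = 2). Per library these shares were 1.32%, 2.88% and 0.459% untreated, 1.11%, 1.67% and 1.08% with cadmium, 1.16% and 0.673% with lead, and 0.328% and 0.0469% combined. Shares of a library depend on all other transcripts in it. The part of pyriform in the counts without any silk cluster was 1.80 ± 1.56% untreated and 0.200 ± 0.207% combined. In bulk tissue, fewer pyriform gland cells and less RNA per cell cannot be told apart.

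The aciniform spidroins had their lowest gland values in the same libraries. Aciniform clusters held 3.39% to 15.5% of counts in the 8 other gland libraries and 0.0662% and 0.354% in the combined ones, a description with no test of the share. All 12 tested aciniform clusters had negative values for cadmium plus lead against untreated (median -4.79), but 0 of 12 passed the edgeR test, and the median of the 3 pyriform clusters was -2.65, beside -0.04 over all clusters tested. The ratio of pyriform to aciniform counts did not keep a fixed value: it was 4.95 in combined replicate 1 and 0.133 in combined replicate 2, against 0.0683 to 0.353 in the other gland libraries.

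Glue and spiral-core spidroins were higher in the combined gland. In the same comparison 9 of 10 aggregate clusters and 3 of 11 flagelliform clusters passed the test as higher, with medians of 8.45 and 6.75 on the log2 scale, against 0.119% of all clusters called higher. Of the ampullate types, 0 of 19 major and 0 of 9 minor ampullate clusters passed, with medians of 5.54 and 7.29. Aggregate clusters held 1.497% and 7.62% of counts in the combined gland and 0.0304% to 0.104% in the untreated gland, so that in the combined libraries aggregate stood above pyriform and in the untreated ones below. With lead against without, 3 of 12 aciniform clusters fell and 9 of 10 aggregate and 3 of 11 flagelliform clusters rose, 1 of 19 major and 1 of 9 minor ampullate clusters rose, and 0 of 3 pyriform clusters passed. Of all clusters, 1.05% were called higher and 0.631% lower in that comparison.

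**Figure D4:**
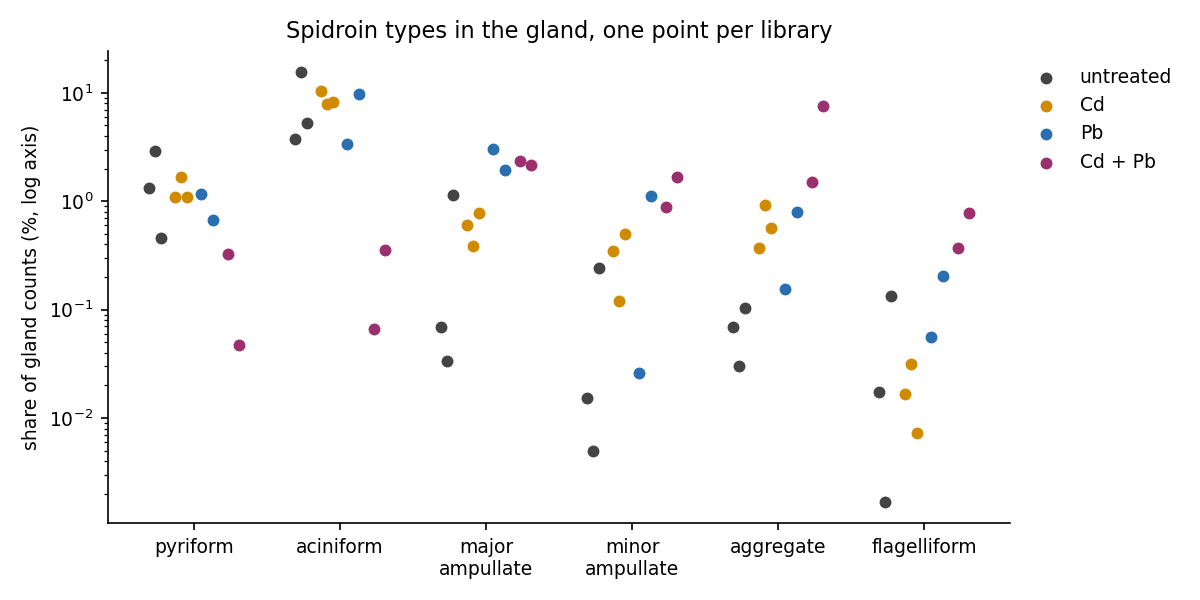
Share of all counts held by the clusters of each spidroin type in the 10 gland libraries (log axis; 1 point per library, colour by treatment). The combined libraries are lowest for pyriform (0.328% and 0.0469%) and aciniform (0.0662% and 0.354%) clusters and highest for aggregate (1.497% and 7.62%) and flagelliform clusters.

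Beside these spidroins, the highest cluster of each other silk type by mean gland FPKM puts the pyriform level in context. The aciniform Cluster-16698.47205 had 53503 ± 37797 FPKM in the untreated gland (SD, n = 3) and 1223 ± 1216 FPKM with both metals (n = 2), against 10329 ± 8225 and 1367 ± 1449 FPKM for the leading pyriform cluster. The major ampullate Cluster-16698.46941 had 4384 ± 7105 FPKM untreated and 7177 ± 1571 combined. The minor ampullate Cluster-16698.47976 had 97.4 ± 83.7 and 5102 ± 2824 FPKM, the aggregate Cluster-16698.45697 had 26.9 ± 11.4 and 15172 ± 16931 FPKM, and the flagelliform Cluster-16698.46827 had 869 ± 1245 and 3184 ± 497 FPKM in the same order. In the untreated gland the leading pyriform cluster overlapped the range of the highest major ampullate cluster and lay above the other 3 of these; in the combined gland it overlapped the aciniform one.

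The general machinery of silk making was read from lists of secretory and acidification components. Of 66 clusters described as secretory-pathway components, 52 were tested in the gland. With lead against without, 2 of 52 rose, against 1.05% of all clusters called higher. These were the translocon-associated protein alpha subunit by 2.05 ± 0.352 on the log2 scale (edgeR adjusted p = 0.0311) and a coatomer beta' subunit by 1.33 ± 0.267 (edgeR adjusted p = 0.0433), and the list's median was 0.11 beside -0.16 over all clusters. The first belongs to the channel by which new proteins enter the endoplasmic reticulum and the second to the coat of vesicles between the endoplasmic reticulum and the Golgi. Of 51 clusters for carbonic anhydrase and the V-type proton pump, which acidify the duct, 0 of 40 tested passed, with a median of -0.82.

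Between untreated tissues, where the pyriform clusters stood higher in the gland, 13 secretory-pathway clusters were called higher and 1 lower of 52, with a median of 0.69, against 3.91% and 6.35% of all clusters. Of 44 acidification clusters, 10 were higher and 5 lower in the gland, among them a V-type proton ATPase subunit G that was higher by 4.99 ± 0.599 on the log2 scale (edgeR adjusted p = 0.00014). Aciniform clusters were called higher in 11 of 12 cases (median 9.06, beside 10.64 for the 3 pyriform clusters), aggregate in 1 of 10, and major ampullate, minor ampullate and flagelliform clusters in none of 19, 9 and 11.

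Marker sums for other tissues also moved in the gland. The 97 muscle-marker clusters summed to between 2712 and 5801 CPM in the untreated gland, 2677 to 4943 with cadmium, 820 to 1433 with lead and 1672 to 3189 with both metals. The 18 hemolymph-marker clusters summed to between 1213 and 7386 CPM untreated, 380 to 2966 with cadmium, 39.8 to 403 with lead and 522 to 1098 with both metals. Of 48 tested muscle-marker clusters, 7 were called lower with both metals than untreated and 13 lower with lead than without. Of all clusters tested, 0.106% and 0.631% were called lower in these comparisons. The median log2 change of the muscle-marker clusters was -2.27 for lead against untreated, -3.21 for cadmium plus lead against untreated and -0.42 for cadmium plus lead against lead. Over all clusters tested the medians were -0.15, -0.04 and 0.035 in the same order. Nerve markers ranged over 1418 to 1678 CPM in the combined gland against 1166 to 1418 CPM untreated. The part of these tissues in the pyriform values was not tested.

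A further cluster outside the rule, Cluster-16698.47058 (868 bases), has no protein description and matches the pyriform spidroin gene of this species in the nucleotide database. It was chosen after its values were seen. Its match score per base was 0.843 against 0.955 for the leading cluster, and the 8 other clusters with only such a match had at most 249 counts in a library. It had 9476, 10259 and 10852 FPKM in the untreated gland and 12929, 10558 and 6518 FPKM with cadmium. It had 1789 and 2144 FPKM with lead, and 500 and 44.7 FPKM with both metals. All 6 libraries without lead lay above the 4 with lead, and the 2 lead libraries lay above the combined ones. In CPM, every library with lead below every library without was found for 4.17% of all clusters tested, and combined below lead for 11.5%.

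In the ganglia this cluster ranged from 7.87 to 355 FPKM. With lead against without, it fell by 3.54 ± 0.70 on the log2 scale in the gland (SE, edgeR adjusted p = 0.0422, lower in 4 of 4 libraries with lead). The change ran from -5.16 to -3.05 when single gland libraries were left out, and the call was lost without untreated replicate 1, any cadmium library or any lead library (adjusted p up to 0.205), and also with no filter on low counts (0.0636) and with the replicate number as a block (0.148). In this comparison 1.68% of all clusters were called. The combined difference from untreated was -4.96 ± 1.06 (edgeR adjusted p = 0.0989). It was called by DESeq2 (adjusted p = 3.0e-06), which called 3213 of all clusters in this comparison. With all 24 columns edgeR gave an adjusted p of 0.0143, but there the 4 copied columns count as replicates and understate the spread. This difference ran from -8.16 to -3.99 when single gland libraries were left out. The difference of lead from untreated was -2.19 ± 0.92 (edgeR adjusted p = 0.407). It was higher in the gland than in the ganglia by 6.46 ± 1.47 in untreated spiders (edgeR adjusted p = 0.0127), and this call was lost without untreated ganglia replicate 1 (adjusted p = 0.0555) and in a fit with only the untreated libraries (0.0616). Its FPKM over that of the leading cluster ran from 0.131 to 0.424 with lead and from 0.528 to 3.16 without.

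With this cluster added, the pyriform share was 2.18 ± 1.21% in the untreated gland, 1.89 ± 0.408% with cadmium, 1.03 ± 0.328% with lead and 0.204 ± 0.218% with both metals. The order of the group means was the same with and without it.

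The clusters most like the leading pyriform cluster across the 10 gland libraries were sought by the SD of the log2 ratio of CPM to it, among 6203 described clusters with a mean of at least 10 CPM. The closest were a plexin-B (SD 0.586), a keratin-associated protein 10-4 (0.65), a partial zonadhesin, a partial lysozyme 1, an 8.6 kDa transglutaminase substrate, a lysozyme, a paramyosin, an ecdysone oxidase, a zonadhesin and a chorion peroxidase (0.82). The names are those of the closest database entry. The median SD over all candidates was 1.78, and the leading cluster's own log2 CPM had an SD of 1.70. The other pieces of the pyriform spidroin were less close, with an SD of 1.20 for the 324-base piece and 1.70 for the 1398-base piece, and 180 candidates had a smaller SD than the closer of these. None of the other silk types' clusters was among the closest 10. The points share the library and its depth, and the values are a description.

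The 3 clusters that matched the rule through a species name are not spidroins. Cluster-16698.60025 (948 bases) is closest to a histone H2B of the ciliate *Tetrahymena pyriformis*, a core protein of chromatin. It had 0 to 152 CPM in the gland, with no treatment group apart. In the ganglia it had 3.26, 4.03 and 0.70 CPM untreated, 1.30, 4.08 and 0.26 CPM with cadmium, 12.6 and 3.97 CPM with lead and 47.7 and 46.1 CPM with both metals. It was higher in ganglia with lead than without by 3.13 ± 0.66 on the log2 scale (edgeR adjusted p = 0.0204), against 12.2% of all clusters called in that comparison, and the call was lost without any 1 of the lead or combined ganglia libraries (adjusted p up to 0.106) and with no filter on low counts (0.101). Lead and the implied fragment length cannot be told apart in that ganglia comparison. Cluster-4179.0 (377 bases) and Cluster-14701.0 (363 bases), both closest to glycine cleavage enzymes of *Paratrimastix pyriformis*, a protist, each had 10 counts in a single gland library and 0 in all others.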

How the data were processed

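Per the labels, RNA was harvested with an RNeasy kit, a SMARTER mRNA-Seq kit served for the libraries, and an Illumina NovaSeq for sequencing. The authors deposited a table of expected counts (estimated counts of reads per assembled cluster, not normalized) and a table of FPKM values (scaled by the authors to length and depth), with database matches. The FPKM unit was read from the values; assembler and counter: not given in the sources used here. Of 24 deposited columns, 4 repeated another column of their group and were left out. Expected counts were rounded and tested with edgeR 4.0.16 (R 4.3.3, quasi-likelihood, TMM, filterByExpr, Benjamini-Hochberg over all clusters; called at an adjusted p under 0.05), in 1 fit per tissue for treatments (44505 and 38659 clusters) and 1 joint fit for tissues (51904). Each SE of an edgeR log2 change is the absolute change over the square root of the F statistic of its test. It is therefore not a separate estimate of spread and is approximate where a group has counts near 0. DESeq2 1.42.0 was an alternative. CPM is the count over the TMM-scaled library size; marker sums used unscaled totals. Levels of different clusters were compared only in the deposited FPKM. The code was tested on simulated data.

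The members and lists were chosen with earlier results of these data known. Every pyriform cluster is named; outside them the rule names the highest cluster of each silk type, the 10 most similar clusters (CPM ratio with a prior of 0.5 counts) and up to 4 called pathway clusters per comparison. Silk lists keep only clusters described as silk proteins; pattern matches to other proteins were dropped by description. No described tubuliform silk was found by the patterns. Implied fragment lengths used clusters with over 200 counts and over 5 FPKM.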

Additional observations from a re-analysis of the deposited data

Results flagged for a closer look

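The leading pyriform cluster (Cluster-16698.46903) was singled out because the combined exposure went with opposite signs in the 2 tissues: both combined gland libraries lay below all 3 untreated gland libraries, and both combined ganglia libraries lay above all 3 untreated ganglia libraries. The change in the gland minus the change in the ganglia was -5.56 ± 2.16 on the log2 scale (SE, unadjusted p = 0.0219). In the edgeR fit across both tissues it did not pass the adjustment (adjusted p = 0.536). An unadjusted p under 0.05 was found for 8.64% of all clusters in this comparison. Combined below every untreated library held for 11.9% of all clusters tested in the gland, and combined above for 20.5% in the ganglia. The comparison was added after these values were seen, so its p gives no support to the opposite signs.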

How the results depend on the processing

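The 60 log2 changes were recomputed under other settings, which gave 1320 values in all. Of these values, 1201 kept their direction and their side of the threshold, 56 lost the call, 23 gained it and 40 turned sign. The setting with all 24 columns counts the 4 copied columns as replicates and understates the spread, so its calls lend no support. The number of called pyriform clusters moved as follows. For cadmium plus lead against untreated gland it was 1 with DESeq2 and with all 24 columns; for cadmium plus lead against cadmium gland 1 with no filter and with DESeq2; for gland with lead against without 1 with no filter, with DESeq2 and with all 24 columns, and 0 to 1 when single libraries were left out. For untreated gland against ganglia it was 1 with only the groups compared. For lead gland against ganglia it was 0 with no filter and with the replicate number as a block, 3 with a filter of 1 CPM in 3 libraries, with DESeq2, with all 24 columns and with only the groups compared, and 0 to 2 when single libraries were left out; for cadmium gland against ganglia that range was 1 to 3. For cadmium plus lead gland against ganglia it was 1 with all 24 columns. For the combined change in the gland minus that in the ganglia it was 1 with DESeq2, which called 652 of all clusters there. The pyriform share of cadmium gland was 1.89% with the cluster matched by nucleotide only. With the replicate number as a block, the leading Cluster-16698.46903 turned to 0.066 for cadmium against untreated gland, 0.012 for cadmium against untreated ganglia and 0.11 for lead against untreated ganglia, and Cluster-16698.46944 to 0.059 in the last; the block changed no other direction. It ended the calls of Cluster-16698.54023 for cadmium gland against ganglia, of Cluster-16698.46903 for lead gland against ganglia and of Cluster-16698.47058 for gland with lead against without. Correlations of same-numbered libraries across treatments ran from -0.17 to 0.229 in the gland and from -0.218 to 0.159 in the ganglia. Between the tissues of a treatment they ran from -0.194 to 0.0857. With 2 or 3 libraries per group these values cannot settle whether the numbers pair the libraries. With all 24 columns, Cluster-16698.54023 turned to 0.068 for cadmium plus lead against cadmium gland and Cluster-16698.46944 to -0.046 for ganglia with lead against without.

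Leaving out single libraries (a lone remaining library is assumed to vary like the other groups) gave these ranges where the sign turned. For Cluster-16698.46903 they were -0.64 to 0.83 for cadmium against untreated gland, -0.88 to 0.57 for lead against untreated gland, -0.75 to 0.023 for lead against cadmium gland, -1.34 to 1.77 and -3.61 to 2.25 for cadmium and for lead against untreated ganglia, -0.039 to 2.88 for ganglia with lead against without, and -0.40 to 3.56 for cadmium plus lead gland against ganglia. For Cluster-16698.54023 they were -2.21 to 2.48, -0.58 to 4.49 and -4.20 to 2.22 for cadmium, lead and both against untreated gland, -2.71 to 0.60 for both against cadmium gland, -1.12 to 2.11 for gland with lead against without, -4.75 to 0.26 for the departure from the sum, -4.81 to 6.21 and -4.79 to 5.55 for cadmium and lead against untreated ganglia, -0.65 to 5.19 for ganglia with lead against without, and -5.21 to 0.65 for the lead effect in the gland minus that in the ganglia. For Cluster-16698.46944 they were -3.65 to 0.38 for the departure, -0.64 to 5.73 and -7.32 to 3.73 for cadmium and lead against untreated ganglia, -2.63 to 2.88 for ganglia with lead against without, and -0.80 to 4.78 for cadmium plus lead gland against ganglia. The cause of these moves was not tested. Another scaling (relative log expression) moved the median of all clusters from -0.15 to -0.27 for lead against untreated gland and from -0.04 to -0.13 for cadmium plus lead. With 0 counts in 5 ganglia libraries and 9 to 28 in 4 others, Cluster-16698.54023 is limited there by depth.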
